A study of Bos taurus with 8 samples.

Results

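WC1-positive γδ T cells were followed in bovine peripheral blood mononuclear cells by single-cell RNA sequencing, without lipopolysaccharide (LPS) and after 2 h, 4 h and 8 h with it. A cell was counted as a member when its barcode held 200 to 3000 genes, at least 1 UMI (unique molecular identifier, 1 per captured RNA molecule) of CD3D, CD3E and CD3G together, at least 2 UMIs of WC1 and WC1.3 together, and 0 UMIs of CD4, CD8B, MS4A1 and CD14. This gave 234 members among 28648 cells within the gene limits, with 93, 55, 43 and 43 of them in the no LPS, 2 h, 4 h and 8 h libraries. The cells were thus chosen by the measured UMIs of these 9 genes, and those genes are described here and not tested.

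All samples came from female lactating Holstein cattle, 2 years old. Blood of 4 animals was pooled and divided into 4 parts, of which 1 had no LPS and 3 had 2 µg/ml LPS at 37 °C for 2 h, 4 h or 8 h. Each part gave 1 scRNA-seq library, so library and treatment cannot be told apart, and a difference between treatments has no replicate check. The time in incubation of the part without LPS is not given in the sources used here, so LPS and time in incubation cannot be told apart either.

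γδ T cells carry a receptor of γ and δ chains in place of the αβ receptor of CD4 and CD8 T cells, and in young ruminants they make up a large share of blood lymphocytes. Many of them carry WC1, a family of transmembrane scavenger receptors with cysteine-rich domains that acts as a co-receptor and binds microbial ligands. WC1-positive cells usually lack CD4, CD8 and CD2, and are known for interferon-γ and IL-17 responses to bacteria. The WC1 genes are near-identical copies, so UMIs can be split between WC1 and WC1.3.

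In the no LPS library 1.18% of the cells were WC1-positive, with an exact binomial (Clopper-Pearson) 95% interval of 0.955% to 1.45%. The 2 h library had 0.555% (0.418% to 0.722%), the 4 h library 0.579% (0.419% to 0.778%) and the 8 h library 1.25% (0.907% to 1.68%). The intervals at 2 h and 4 h lay below those without LPS and at 8 h. They cover counting error only. Among cells with a CD3 UMI the shares were 2.23%, 0.967%, 0.986% and 2.17% in the same order. The rule needs 2 UMIs and so depends on depth and on WC1 RNA per cell, and fewer such cells cannot be told apart from less WC1 RNA in each. With every cell thinned to 1000 UMIs, which left out 543, 460, 315 and 401 shallower cells, 15, 8, 3 and 5 cells met the rule, which were 0.205%, 0.0847%, 0.0421% and 0.165% of the cells, and the intervals of the no LPS and each other library overlapped. In the same thinned cells, a minimum of 1 WC1 UMI gave 0.983% (0.770% to 1.24%), 0.709% (0.550% to 0.9%), 0.393% (0.262% to 0.568%) and 0.790% (0.507% to 1.17%), and there the 4 h interval lay below that without LPS. With a minimum of 1 WC1 UMI in place of 2, the shares were 2.77%, 2.33%, 2.13% and 2.88%, so the gap between libraries was narrower there.

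**Figure D1:**
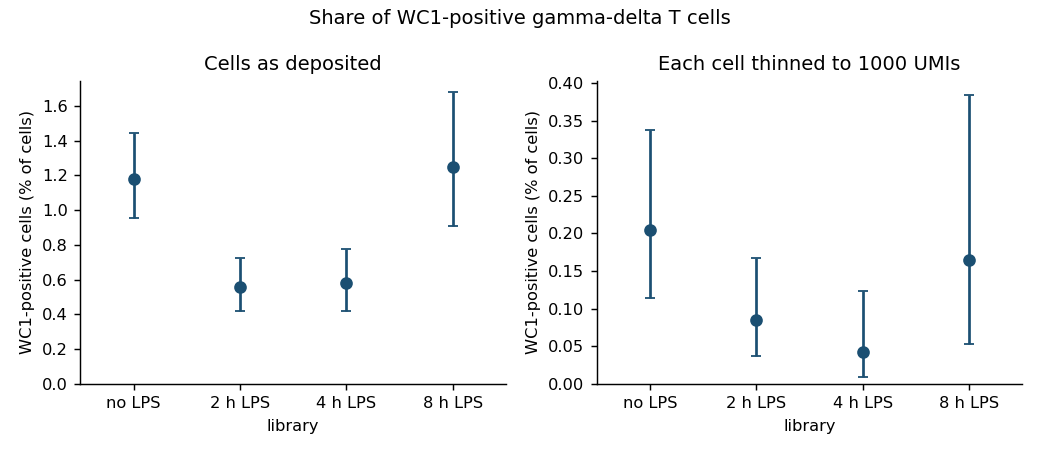
Share of WC1-positive cells in each library, in percent of cells with 200 to 3000 genes, as deposited (left) and with each cell thinned to 1000 UMIs (right), with exact binomial 95% intervals (counting error only). On the left the 2 h and 4 h libraries, at 0.555% and 0.579%, lie below the no LPS library at 1.18% and the 8 h library at 1.25%, and on the right the intervals of neighbouring libraries overlap.

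The 4 libraries held 16679535 to 47958084 UMIs within the gene limits, and the members had median UMI numbers of 3904, 3754, 4503 and 5266 (no LPS, 2 h, 4 h, 8 h). Their summed counts were 394689, 256231, 229707 and 258598 UMIs, and levels below are CPM, UMIs per 1000000 UMIs of these sums. The highest mitochondrial share of a member in its library was 3.59% to 18.6%. Members of different libraries shared 0 barcodes.

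The 2-UMI limit cut through a continuous range. Among cells that met every other condition, 7825 had 0 UMIs of WC1 and WC1.3, 472 had 1, 147 had 2, 50 had 3, 22 had 4 and 15 had 5 or more. Just outside the limit, the cells with 1 UMI had levels of BLK, the B lymphoid Src-family kinase, of 566, 441, 572 and 507 CPM (no LPS, 2 h, 4 h, 8 h), while members had 626, 441, 522 and 394 CPM. GATA3, the T cell transcription factor, stood at 286, 481, 477 and 390 CPM in them and at 299, 421, 475 and 325 CPM in members. RHEX, an adaptor of erythropoietin receptor signalling, stood at 766, 591, 649 and 745 CPM in them and at 801, 621, 740 and 565 CPM in members. The cells on either side of the limit therefore had like levels of these 3 genes. The requirement of 0 UMIs of the 4 exclusion genes removed 43 of 277 cells, of which 16 had MS4A1, 14 CD14, 9 CD4 and 6 CD8B.

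WC1 stood at 393, 359, 239 and 244 CPM in the members, and WC1.3 at 271, 199, 231 and 201 CPM. WC1 alone was seen in 104 members, WC1.3 alone in 93 and both in 37. At least 1 BLK UMI was found in 207 of the 234 members and at least 1 GATA3 UMI in 175, and 8 members had neither. BLK and GATA3 were given as markers of these cells with earlier results of these data known, so their levels are no independent support for the label. CD163L1, a scavenger receptor gene of the same family, had a UMI in 56 members. CD2, a T and NK cell adhesion molecule, had a UMI in 6, and CD8A in 1. T cell receptor constant genes were not analysed here and the γδ receptor itself was not checked.

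In the cells with no WC1 UMI that met the other conditions, BLK stood at 153, 123, 145 and 119 CPM. It stood at 9.09, 6.92, 14.1 and 14.4 CPM in CD4 T cells and at 28.5, 24.8, 16.1 and 11.9 CPM in CD8B T cells. The lowest level in members was thus above the highest in each of these 3 classes. As deposited, 83.6% to 94.6% of the members had a BLK UMI, against 1.25% to 9.52% of monocytes, which were sequenced to a higher or like median depth (5126 to 12403 UMIs). With each cell thinned to 1000 UMIs, the shares were 30.2% to 48.8% of members and 0% to 5.48% of monocytes.

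**Figure D2:**
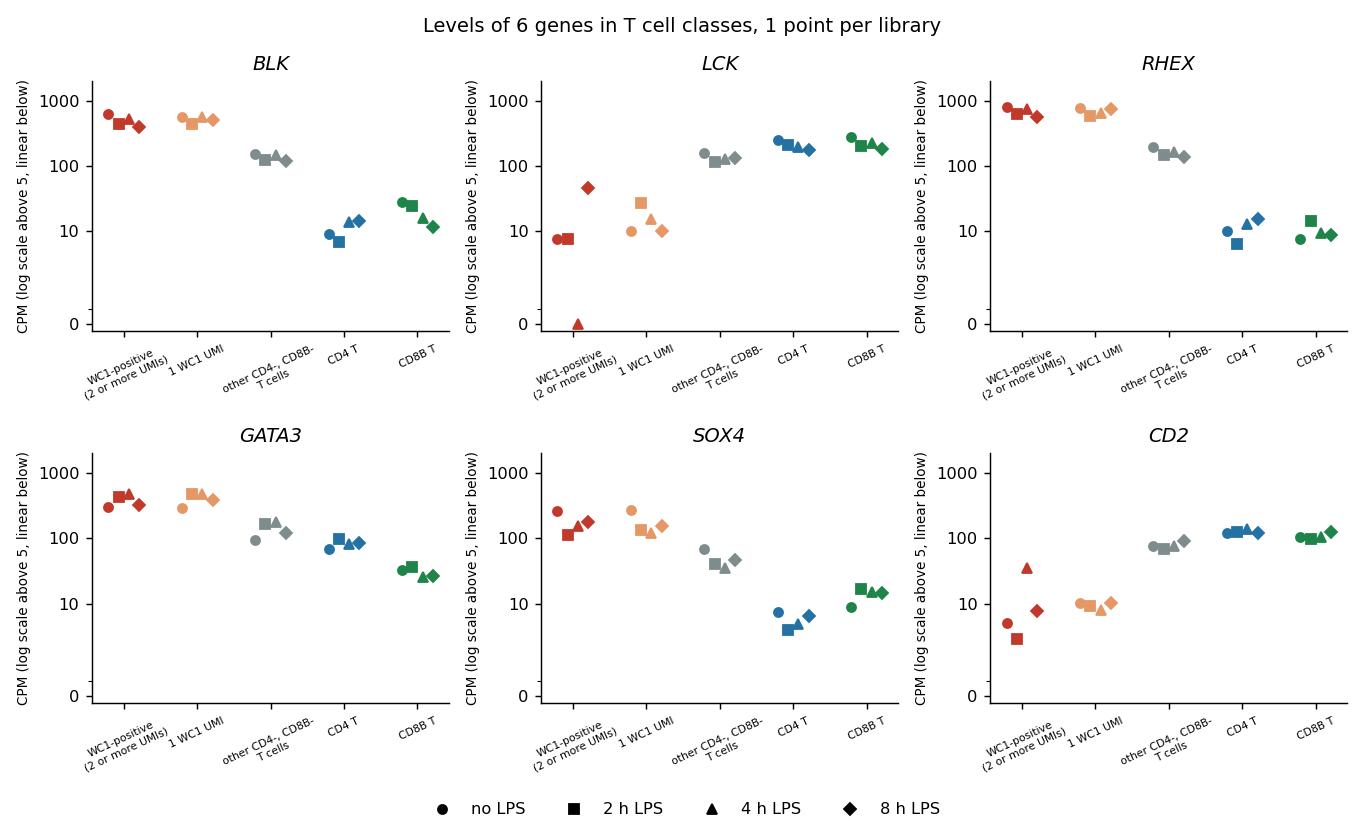
Levels of BLK, LCK, RHEX, GATA3, SOX4 and CD2 in CPM (axis logarithmic above 5 CPM and linear below) in WC1-positive cells, cells with 1 WC1 UMI, other CD4- CD8B- T cells, CD4 T cells and CD8B T cells, with 1 point per library. BLK in the 4 WC1-positive sums sits between 394 and 626 CPM and in CD4 T cells between 6.92 and 14.4 CPM, while LCK is lower in WC1-positive cells than in every αβ T cell sum.

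Markers of B cells and monocytes were below their level in those cells. No gate was made for NK cells, granulocytes, dendritic cells, platelets or red cells, so their markers have no such reference. The summed B cell markers stood at 76.0, 35.1, 43.5 and 73.5 CPM, against 1600 to 2096 CPM in B cells and 11.6 to 30.2 CPM in CD4 T cells, and PAX5 and FCRLA were at 0. They summed to 26.6 to 55.5 CPM in CD8B T cells. In the cells with no WC1 UMI that met the other conditions they summed to 29.4 to 76.5 CPM. CD79A, a chain of the B cell receptor, was the main part of this list, at 58.3, 27.3, 30.5 and 42.5 CPM, and 43 members had a UMI of it. CD79A was higher than in CD4 T cells by 4.10 ± 0.39 in the edgeR comparison described below (adjusted p = 7.52e-08). Against CD8B T cells it was higher by 0.76, and this call was lost whichever library was left out (adjusted p = 0.0566 to 0.394). Over all libraries it stood at 42.1 CPM in members, 2.29 CPM in CD4 T cells and 21.5 CPM in CD8B T cells. The part of B cell RNA in it was not tested. The summed monocyte markers stood at 517, 160, 374 and 422 CPM, against 16641 to 49523 CPM in monocytes and 144 to 425 CPM in CD4 T cells, and CSF1R and C5AR1 were at 0. NK cell markers summed to 174 to 213 CPM, against 281 to 1158 CPM in CD8B T cells and 126 to 158 CPM in CD4 T cells, and GZMB was at 0. Granulocyte markers summed to 19.5 to 112 CPM with CSF3R, CXCR2 and MMP8 at 0, and platelet and red cell markers to 39.2 to 58.3 CPM. Dendritic cell markers summed to 2.53, 27.3, 87.1 and 11.6 CPM, with CLEC9A, XCR1 and CD1E at 0. In CD4 T cells they summed to 9.09, 12.7, 19.4 and 6.83 CPM. TLR4, the receptor for LPS, stood at 7.60, 0, 4.35 and 7.73 CPM in members, and at 84.4 to 137 CPM in monocytes. At least 2 WC1 UMIs were found in 0 of 527 to 2094 B cells a library, which allows up to 0.176% to 0.698%, and in 0 of 84 to 807 monocytes, which allows up to 0.456% to 4.30% (exact binomial upper limits).

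The members were then compared with αβ T cells of the same libraries, 4085 CD4 T cells and 1749 CD8B T cells without a WC1 UMI. Sums of UMIs for each class in each library were tested by edgeR's quasi-likelihood test with the library as a block and Benjamini-Hochberg adjustment at 0.05. The test had 4 pairs of sums, and since all come from 1 pool of 4 animals, the p-values measure the spread between these libraries and not between animals. Against CD4 T cells 602 of 7354 genes were higher (8.19%) and 475 lower (6.46%). In the CD8B comparison 639 of 5812 were higher (11.0%) and 532 lower (9.15%). The median log2 fold change over all genes was −0.01 in both comparisons. The counts of list genes below are to be read beside these shares, and a count near them is no result about the list. A gene could pass the filter on low counts through the αβ T cells alone, as CD28 and THEMIS did with 0 UMIs in members. Such a gene could only be called lower, so the list counts and medians depend on the filter. With no such filter 604 genes were higher and 745 lower than in CD4 T cells.

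PIK3AP1, an adaptor that links receptors to PI3-kinase, was higher than in CD4 T cells by 6.12 ± 0.25 (log2 fold change ± SE, adjusted p = 7.71e-14). RHEX was higher by 6.04 ± 0.15 (adjusted p = 1.2e-17), and BLK by 5.59 ± 0.17 (adjusted p = 4.2e-16). RHEX and BLK were also higher than in CD8B T cells, by 6.02 ± 0.17 and 4.56 ± 0.15. LCK, the Src-family kinase that starts signalling at the CD4 and CD8 co-receptors, went the other way. LCK stood at 7.60, 7.81, 0 and 46.4 CPM in the members, at 177 to 254 CPM in CD4 T cells and at 183 to 275 CPM in CD8B T cells. Members and αβ T cells did not overlap in any library, and LCK was lower by 3.78 ± 0.32 against CD4 T cells (adjusted p = 1.4e-08) and by 3.95 ± 0.35 against CD8B T cells (adjusted p = 2.57e-08). In the cells with 1 WC1 UMI, LCK stood at 10.2, 27.2, 15.8 and 10.3 CPM, also below every αβ T cell sum.

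Of 23 T cell receptor signalling genes tested against CD4 T cells, 4 were higher and 11 lower, with a median log2 fold change of −0.24. Among the higher genes beside BLK were the receptor chain CD247 (0.74 ± 0.10) and the kinase ZAP70 (0.78 ± 0.16). Lower beside LCK were FYN, the other main Src-family kinase of T cells (−0.59 ± 0.10), the adhesion receptor CD2 (−3.39 ± 0.31), and CD5 and CD6, scavenger receptor family members that dampen receptor signalling (−2.18 ± 0.16 and −2.49 ± 0.44). DGKA, which removes diacylglycerol, was lower by 3.23 ± 0.42. THEMIS, needed for αβ T cell selection in the thymus, had 0 UMIs in the members. Set against a floor of 3 counts over all members (2.63 CPM), THEMIS was at least 3.56-fold lower than in CD4 T cells and at least 6.58-fold lower than in CD8B T cells. In the CD8B comparison 5 of 20 genes of the list were higher and 8 lower. When some library was left out, 3 of the 15 calls against CD4 T cells and 2 of the 13 against CD8B T cells were lost. The genes named here were not among them.

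Of 16 transcription factors of T cell lineages tested against CD4 T cells, 4 were higher and 2 lower. SOX4, a factor that acts in γδ T cell development, stood at 261, 113, 152 and 174 CPM in members and at 4.56 to 7.35 CPM in CD4 T cells, a difference of 4.94 ± 0.20 (adjusted p = 4.79e-14). ID3, an inhibitor of E proteins induced by receptor signals in γδ T cells, was higher by 3.96 ± 0.22, RUNX3 by 2.54 ± 0.11 and GATA3 by 2.25 ± 0.11. ID2, the related inhibitor, was lower by 1.83 ± 0.17, and LEF1, a factor of naive αβ T cells, by 1.57 ± 0.21. The comparison with CD8B T cells had 6 of 16 higher, among them SOX4 (3.60 on the log2 scale) and GATA3 (3.59 ± 0.16), and 4 lower, and 4 of these 10 calls, those of SOX4 and GATA3 not among them, were lost when some library was left out.

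Of 14 costimulatory and checkpoint receptor genes tested against CD4 T cells, 3 were higher and 8 lower, with a median of −1.13. Of these 11 calls 1 was lost when some library was left out, that of ICOS. CD28, the main costimulatory receptor, had 0 UMIs in members and was at least 5.37-fold lower, and it passed the filter through CD4 T cells alone. CTLA4 was lower by 3.92 ± 0.51, PDCD1 by 2.66 ± 0.33 and CD27 by 1.71 ± 0.20. The 3 that were higher were TNFRSF9 (4-1BB), LAG3 and TNFRSF18 (GITR), by 3.86, 1.96 and 1.82 on the log2 scale. The TNFRSF9 value rests on few UMIs. Without its highest cell in each library, members had 4, 3, 5 and 2 TNFRSF9 UMIs (no LPS, 2 h, 4 h, 8 h). With CD8B T cells the split was 4 higher and 4 lower of 8, and 3 of these calls were lost when some library was left out.

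Of 20 cytokine receptor genes tested against CD4 T cells, 5 were higher and 3 lower. Of these 8 calls 2 were lost when some library was left out, those of IL27RA and IL2RG. IL2RA, the α chain of the IL-2 receptor, was higher by 2.21 ± 0.11 against CD4 T cells and by 4.23 ± 0.16 against CD8B T cells. IL6R was higher by 1.17 ± 0.13 and 3.40 ± 0.21. Its signalling partner IL6ST was lower by 1.94 ± 0.34 and 2.01 on the log2 scale, and IL21R was lower by 4.05 ± 0.43 and 2.28. The IL21R call against CD8B T cells was lost without the no LPS library (−1.58, adjusted p = 0.0867). Of 17 receptor genes tested against CD8B T cells, 10 were higher and 2 lower, and 6 of these 12 calls were lost when some library was left out.

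Homing genes were mixed. Against CD4 T cells 3 of 21 were higher and 5 lower. CCR6, the receptor for CCL20, was higher by 2.46 on the log2 scale and ITGB7, an integrin chain of gut homing, by 1.16 ± 0.12. CCR7 and CXCR5, receptors that guide cells into lymph nodes and follicles, were lower by 2.03 and 2.43, and CXCR3 by 3.72. Of the 110 CCR7 UMIs in members 83 lay in 1 cell at 4 h, so the CCR7 values in both comparisons depend on that cell. Without the no LPS library CCR6, CXCR5 and CXCR3 no longer passed (2.13, −1.94 and −2.94, adjusted p = 0.0649, 0.0815 and 0.0759), and CXCR5 was also lost without the 2 h or the 8 h library. Of 15 tested against CD8B T cells 3 were higher, with GPR183, a receptor for oxysterols, at 2.64 ± 0.20, and 7 lower, among them CCR7 (−2.17 ± 0.40). Of these 10 calls 2 were lost when some library was left out, those of ITGA4 and SELPLG.

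Granule genes separated the 2 comparisons. Against CD4 T cells 5 of 6 tested were higher and 0 lower, with NKG7 at 2.17 ± 0.33, LYST at 1.91 ± 0.34, PRF1 (perforin) at 1.72 ± 0.37, CTSW at 1.71 ± 0.31 and SRGN, the proteoglycan that packs granules, at 0.74 ± 0.05. PRF1 did not pass without the 8 h library (1.45, adjusted p = 0.0778). Against CD8B T cells 2 of 8 were higher and 6 lower, with a median of −2.36. LYST, 1 of the 2, did not pass without the 2 h library (1.15, adjusted p = 0.0817). SRGN was higher there by 2.10 ± 0.05, with 6631, 6451, 6748 and 5143 CPM in members and 1213 to 1615 CPM in CD8B T cells. Perforin was lower by 2.09 ± 0.28, NKG7 by 1.49 ± 0.28 and KLRK1 (the receptor NKG2D) by 4.56 on the log2 scale. GNLY (NK-lysin), a gene with near-identical copies whose UMIs can be split, was lower by 4.33 ± 0.27. GZMM had 0 UMIs in members and was at least 12.3-fold lower.

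The NF-kB pathway carries signals from receptors to inflammatory genes. Of 15 of its genes tested against CD4 T cells 7 were higher and 0 lower, with a median of 0.55, and BCL3 and TRAF1, both among the 7, were each lost when some library was left out. NFKB1, BIRC3 and NFKBIA kept the call in each such fit. NFKB1 was higher by 1.28 ± 0.11, BIRC3 by 1.22 ± 0.12 and NFKBIA by 0.88 ± 0.08. Against CD8B T cells 8 of 15 were higher and 0 lower, with a median of 0.89, and NFKBIA was higher by 2.26 ± 0.11. RGS1, which dampens signals of G-protein-coupled receptors, was higher by 2.86 ± 0.07 and 4.20 ± 0.10. Of 16 genes of the ATF4 and amino acid response, 6 were higher than in CD4 T cells and 0 lower. Among the 6 were the mTORC1 inhibitor DDIT4 (3.58 on the log2 scale), SESN2 (2.68) and PHGDH, the first enzyme of serine synthesis (1.98 ± 0.15). The calls of 2 others, ATF4 itself and PSPH, were lost when some library was left out. Of 10 tested against CD8B T cells, 2 were higher, DDIT4 (3.59) and PHGDH (2.04).

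Interferon-stimulated genes differed by comparison. Against CD4 T cells 3 of 35 were higher, with RSAD2 (viperin) at 2.57 ± 0.20, and 4 lower, with a median of −0.11. Over all genes 8.19% were higher and 6.46% lower there, so the 3 higher genes are near the share of all genes. Of these 7 calls 1 was lost when some library was left out, that of USP18. Against CD8B T cells 14 of 29 were higher and 0 lower, with a median of 0.64, among them RSAD2 (3.52), OAS1Y (2.66), ISG15 (2.10 ± 0.14) and MX1 (1.48). When a library was left out, 8 of the 14 calls against CD8B T cells were lost, the 4 genes named here not among them.

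Of 10 effector cytokine and chemokine genes tested against CD4 T cells, 1 was higher and 4 were lower, among them TNF at 0, 19.5, 17.4 and 3.87 CPM (−1.37 ± 0.44, adjusted p = 0.0389) and the chemokine CCL4 at 53.2, 58.5, 26.1 and 54.1 CPM (−1.38 ± 0.27, adjusted p = 0.000669). CCL4 was also lower than in CD8B T cells (−1.55 ± 0.30), where 1 of 7 was higher and 3 lower. The 1 gene higher than in CD4 T cells was CCL5 (1.01 ± 0.33), which without the 8 h library was at 0.18 with adjusted p = 0.72. All 5 calls of this list against CD4 T cells were lost when some library was left out, those of TNF, CCL3, CCL4 and CCL20 each without the no LPS or the 2 h library, and that of TNF also without the 8 h library.

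Pattern recognition, activation, metabolic and heat shock genes were compared in the same way. Against CD4 T cells 8.19% of all genes were higher and 6.46% lower. A list with 0 or 1 gene passing each way is no result beside these shares. Among pattern recognition genes 1 of 9 was higher than in CD4 T cells and 0 lower, and the 1 was NLRP3, the inflammasome sensor, at 30.4, 31.2, 26.1 and 19.3 CPM (2.00 ± 0.38, adjusted p = 0.000595). Among activation and immediate early genes 5 of 21 were higher, with the AP-1 subunit JUN at 1.37 ± 0.10, and 2 lower, DUSP2 (−1.23 ± 0.19) and MYC (−0.85 ± 0.18). The calls of CD83 and ZFP36, 2 of these 7, were lost when some library was left out. MYC was lower than in CD8B T cells by 2.09 ± 0.17, where 10 of 17 genes of that list were higher and 2 lower and 6 of the 12 calls, JUN among them, were lost when some library was left out. EGLN3, a prolyl hydroxylase of the hypoxia response, was the 1 of 17 glycolysis and hypoxia genes that passed against CD4 T cells (2.60 ± 0.19), and it was higher than in CD8B T cells by 3.34 ± 0.22. Of 12 heat shock genes 0 were higher and 1 lower against CD4 T cells, HSPD1, whose call was lost without the no LPS, the 4 h or the 8 h library (adjusted p = 0.0603, 0.0768 and 0.0972). Of 11 tested against CD8B T cells 2 were higher, HSPA1A and HSPA5, each lost without some library, and 1 lower.

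Of the 12 largest named rises against CD4 T cells, others than those above were ZNF462 (5.85 ± 0.26), the receptor GPR146 (4.52), GNPTAB, which tags lysosomal enzymes with mannose-6-phosphate (3.81), RIN3 (3.68), RUBCNL, an autophagy gene (3.36), and SYTL3, a gene of vesicle trafficking (3.31). Of the largest falls, ZNF365, GCNT4, ZNF831 and RARB, a retinoic acid receptor, had 0 UMIs in the members and were at least 14.6-, 6.17-, 5.70- and 4.05-fold lower. Against CD8B T cells the largest rises included PLA2G7, which breaks down platelet-activating factor (4.26), PIK3AP1 (3.98), GNPTAB (3.80) and TNFRSF18 (3.66 ± 0.22). The largest falls included CD8A (−6.96), DAPL1 (−5.83), GPM6A (−5.71) and QPCT, glutaminyl cyclase (−4.61). Both classes were chosen by their UMIs of CD8B, the other CD8 chain, so the CD8A fall is no independent result.

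**Figure D3:**
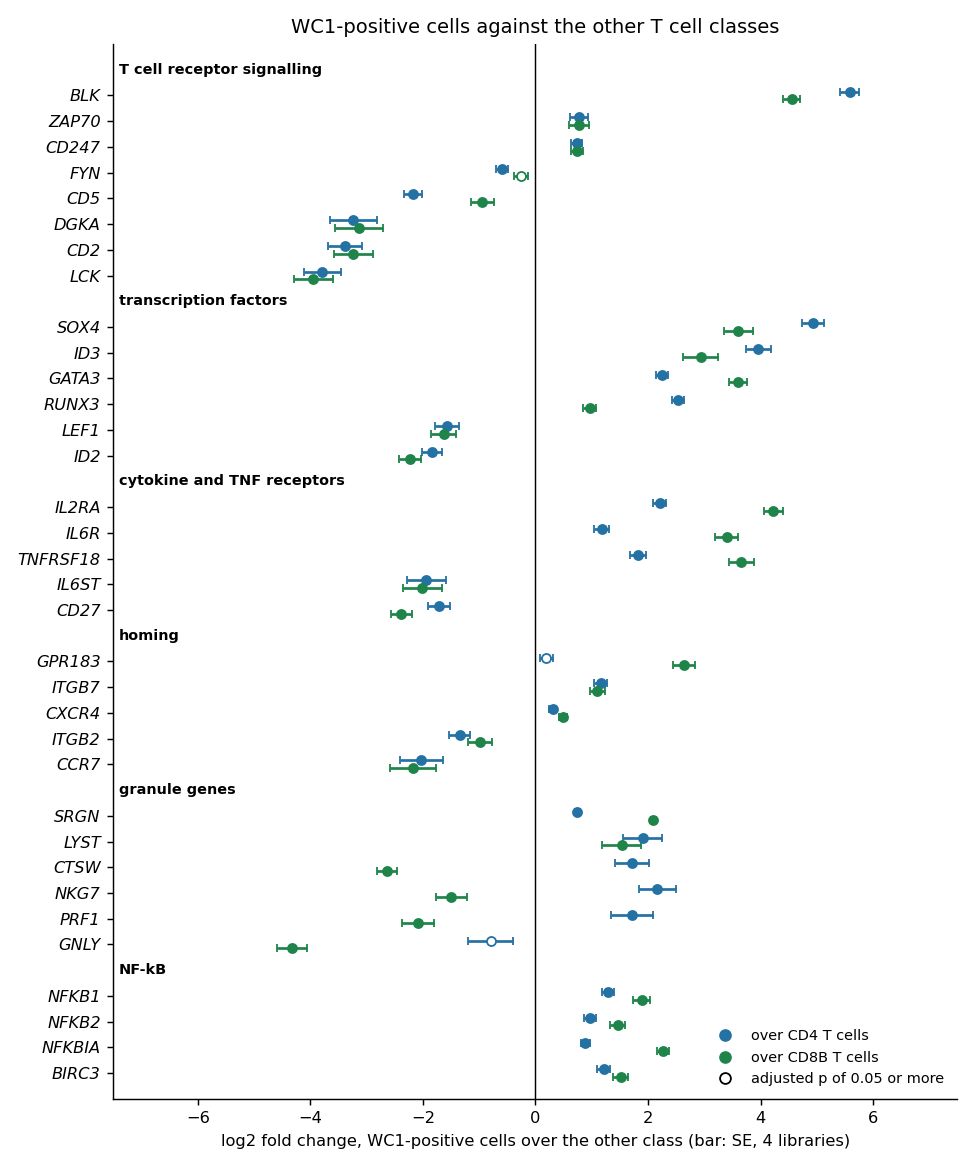
Log2 fold changes (x axis) of genes by role in WC1-positive cells over CD4 T cells (blue) and over CD8B T cells (green). Bars show the SE from the edgeR fit to the 4 libraries, and points are open where the adjusted p was 0.05 or more. BLK lies at 5.59 and 4.56 and LCK at −3.78 and −3.95, while PRF1 lies on opposite sides of 0, at 1.72 and −2.09.

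Members with WC1.3 and no WC1 UMI (93 cells) were compared with those with WC1 and no WC1.3 UMI (104 cells) in the same way. Of 1489 genes tested, 1 was higher (0.0672%) and 0 lower (0%), with 54 genes at an unadjusted p under 0.05 and 0 called by DESeq2. The gene was BCL2A1, a survival gene of the BCL2 family, at 132, 703, 1139 and 182 CPM in WC1.3 cells and 83.0, 82.8, 209 and 135 CPM in WC1 cells, a difference of 1.94 ± 0.31 (adjusted p = 0.00864). Without the 4 h library its adjusted p was 0.999, and without the 2 h library 0.415. Of its UMIs, 97 of the 166 at 4 h and 50 of the 80 at 2 h lay in 1 cell each, both with WC1.3. BLK differed by 0.03 ± 0.20, GATA3 by −0.33 ± 0.19 and RHEX by −0.16 ± 0.15, each with adjusted p = 0.995.

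For the response to LPS, a gene was taken as past the fold when its CPM ratio to the no LPS library was at least 2 or at most 0.5, among genes with at least 100 UMIs in both libraries together. No test was possible, and log2 ratios are given with exact 95% intervals for counting error. After 2 h 19 of 710 genes were past the fold upwards (2.68%) and 8 downwards (1.13%). At 4 h 29 of 686 were higher (4.23%) and 10 lower (1.46%). The excess of rises depended on the minimum count, since with at least 20 UMIs 235 genes were higher and 213 lower at 4 h, and with no minimum and a pseudocount of 5 CPM 818 were higher and 1278 lower. At 2 h the counts were 166 and 145, and 666 and 933. At 8 h 7 of 698 were higher (1.00%) and 1 lower (0.143%), which became 4 and 2 with TMM factors and 6 and 2 with DESeq2 size factors. The median log2 ratio over all genes was 0.03, 0.00 and 0.00. When each gene was recomputed without the cell that held most of its UMIs in each library, a check chosen after seeing the data, 15, 19 and 7 genes were higher and 9, 15 and 3 lower.

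ISG15, a ubiquitin-like protein induced by interferon, was higher at 2 h and 4 h. It stood at 73.5, 781, 2229 and 135 CPM, log2 ratios of 3.41 (2.84 to 4.02), 4.92 (4.38 to 5.52) and 0.88. It was highest at 4 h, and at 8 h it was not past the fold. As deposited 15.1%, 43.6%, 83.7% and 37.2% of the members had an ISG15 UMI, and 4.30%, 21.8%, 53.5% and 20.9% after thinning to 1000 UMIs. The cell with most of its UMIs held 43.0% of them at 2 h and 32.2% at 4 h. Without these cells the log2 ratios were 3.06 and 4.78. MX1, an antiviral GTPase, stood at 17.7, 35.1, 444 and 58.0 CPM, with a log2 ratio of 4.65 (3.55 to 6.0) at 4 h. Of its 7 UMIs without LPS 85.7% lay in 1 cell, so without the top cells 1 UMI was left there, against 88 at 4 h, and the ratio was 7.26. The cells with 1 WC1 UMI gave 42.9, 495, 2649 and 269 CPM of ISG15 and 20.4, 38.8, 483 and 65.5 CPM of MX1, so the order of the libraries was the same in cells that the rule had not taken.

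TNFRSF18, the costimulatory receptor GITR, stood at 104, 847, 701 and 220 CPM, with log2 ratios of 3.03 (2.54 to 3.55) at 2 h and 2.75 (2.25 to 3.29) at 4 h. In the cells with 1 WC1 UMI it stood at 151, 766, 620 and 266 CPM. METRNL, a secreted cytokine, stood at 124, 527, 401 and 263 CPM, with 2.09 (1.60 to 2.59) at 2 h and 1.08 (0.53 to 1.64) at 8 h. RGS1 stood at 727, 2186, 2233 and 1388 CPM, with 1.59 (1.38 to 1.80) at 2 h, and at 850, 2059, 1854 and 1604 CPM in the cells with 1 WC1 UMI. All 3 genes were highest at 2 h or 4 h and stood above the no LPS level at 8 h, although METRNL at 8 h turned to −0.31 in members with at least 3 WC1 UMIs. CDKN1A, the cell cycle inhibitor p21, was higher at 2 h by 1.96, and SOD2, the mitochondrial superoxide dismutase, by 1.94. BATF, an AP-1 factor of effector T cells, stood at 48.1, 269, 414 and 135 CPM, with 3.1 at 4 h, and MARCKS was higher there by 2.61.

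NFKBIA, the inhibitor that NF-kB itself induces, stood at 492, 1331, 1576 and 661 CPM, with 1.44 (1.18 to 1.70) at 2 h and 1.68 at 4 h. A single cell held much of the 4 h value, and without it the ratio there was 1.15. BIRC3, an inhibitor of apoptosis under NF-kB control, stood at 182, 437, 296 and 379 CPM, with 1.26 at 2 h and 1.05 (0.60 to 1.51) at 8 h. PDE4B, a phosphodiesterase, was higher by 1.00 at 8 h.

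**Figure D4:**
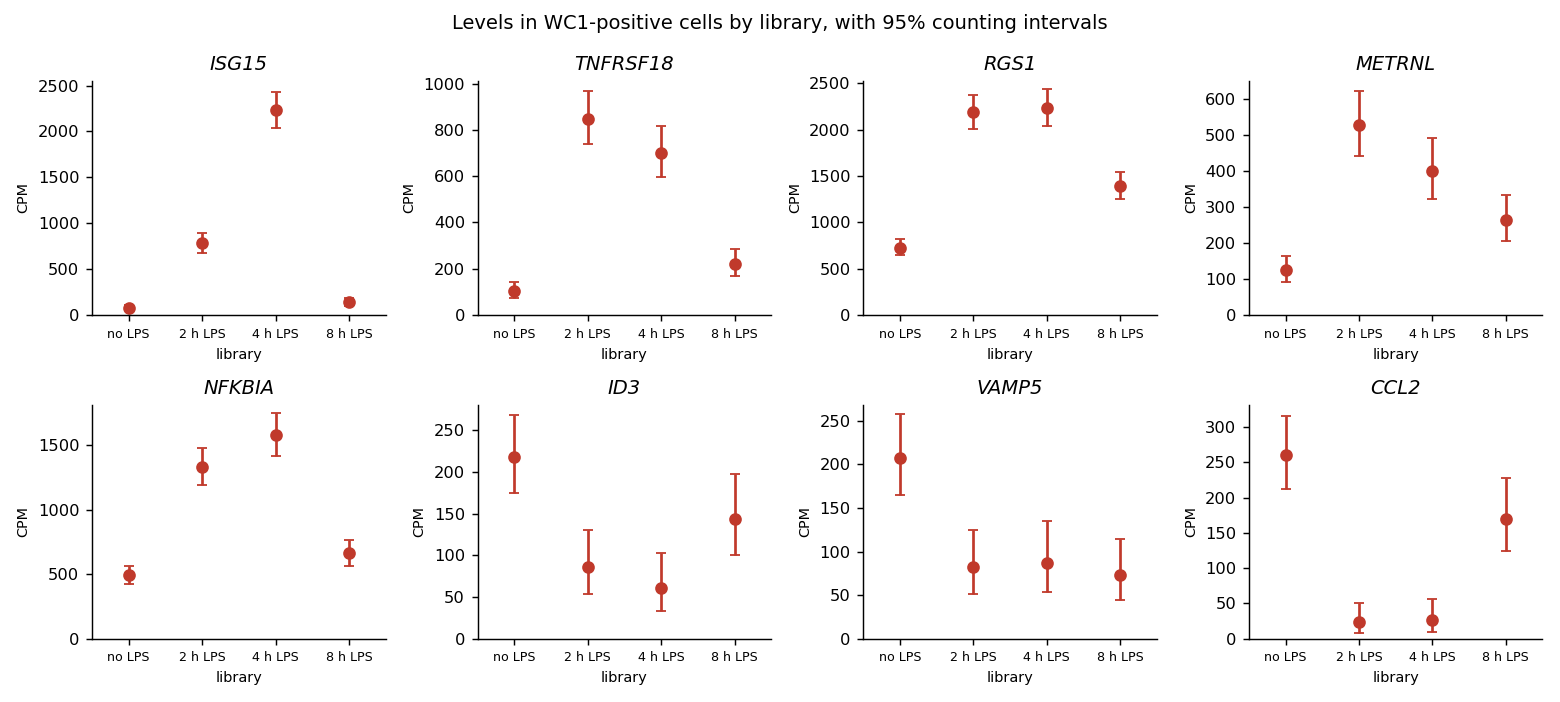
Levels in CPM of 8 genes in WC1-positive cells by library, with exact Poisson 95% intervals for counting error. ISG15 goes from 73.5 CPM without LPS to 2229 CPM at 4 h and 135 CPM at 8 h, and VAMP5 from 208 CPM to between 73.5 and 87.1 CPM in the LPS libraries.

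Genes past the fold downwards included factors of lymphocyte development. ID3 stood at 218, 85.9, 60.9 and 143 CPM, with −1.34 (−2.09 to −0.65) at 2 h and −1.84 (−2.77 to −1.01) at 4 h. It stood at 157, 51.7, 86.8 and 131 CPM in the cells with 1 WC1 UMI, lower at 2 h and 4 h there too. SOX4 had a log2 ratio of −1.21 (−1.85 to −0.60) at 2 h, and in the cells with 1 WC1 UMI it stood at 270, 135, 122 and 155 CPM.

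VAMP5, a vesicle fusion gene, was the only gene past the fold downwards at 8 h and was so at all 3 times, at 208, 82.0, 87.1 and 73.5 CPM. The cells with 1 WC1 UMI gave 110, 99.6, 97.9 and 82.8 CPM, a narrower range. PLEKHF2 had a log2 ratio of −1.07 at 2 h. The inhibitory receptor PVRIG, the G1 cyclin CCND3 and ADGRE5 (CD97) had log2 ratios of −1.48, −1.29 and −1.18 at 4 h.

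The other falls were chemokines that monocytes make. CCL2 stood at 261, 23.4, 26.1 and 170 CPM, with −3.48 (−4.96 to −2.31) at 2 h and −3.32 at 4 h. CXCL5 stood at 479, 180, 209 and 476 CPM, and CXCL2 at 218, 97.6, 87.1 and 286 CPM. In monocytes CCL2 stood at 32679, 9802, 5767 and 10298 CPM, CXCL5 at 81792, 69452, 76998 and 85804, and CXCL2 at 33792, 64166, 53095 and 45104. CCL2 in B cells, whose gate allowed CD14 UMIs, stood at 1691, 514, 143 and 294 CPM. Over all libraries CCL2 stood at 140 CPM in members, 106 CPM in CD4 T cells and 137 CPM in CD8B T cells. It stood at 122 CPM in the cells with no WC1 UMI that met the other conditions. The number of monocytes in the gate was 806, 369, 160 and 84 in the same order. The part of free monocyte RNA in these values was not tested.

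Several of the widest rises lay in 1 cell. At 4 h the class II genes BOLA-DRA, BLA-DQB and CD74 and the lipid carrier FABP5 were higher by 4.53, 3.38, 3.02 and 4.32 on the log2 scale, and 98.9%, 90.7%, 79.6% and 99.1% of their UMIs came from a single cell. Without it the log2 ratios were −1.70, 0.13, 0.95 and −2.12. This cell had 18203 UMIs, the most of its library's members, with 7 CD3E, 2 WC1.3, 2 BLK and 7 GATA3 UMIs and 0 RHEX, and it also held 83 of 90 CCR7 UMIs. It had 1 FLT3, 1 CD79B and 2 LYZ UMIs, and whether it was a pair of cells was not tested.

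At 2 h all 149 IL22 UMIs of the members came from 1 cell with 13470 UMIs, against 1 IL22 UMI in the members without LPS, and the same cell held all 33 IFNG UMIs of that library's members. It had 13 CD3E, 3 WC1.3, 4 BLK and 11 RHEX UMIs. The log2 ratio of IL22 was 7.84 with a counting interval of 5.34 to 13.2. IL17A had 0 UMIs in the members of all 4 libraries, which allows up to 2.63 CPM over all members. In the cells with 1 WC1 UMI, 77 IL17A, 343 IL17F and 47 IL22 UMIs were counted at 2 h, and 0 of each without LPS. These values were chosen after they were seen and come from 1 library with 176 such cells. How many of these cells held the UMIs was not counted, so they can lie in 1 or few cells. At 8 h CCL5 was higher by 1.38, with 92 of its 121 UMIs in 1 cell, and by 0.42 without it.

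The lists were described over the same genes at every time, those with at least 1 UMI in the members of the 4 libraries together, on the log2(CPM + 5) scale, a setting chosen after seeing the data. The 16 NF-kB genes had median log2 ratios of 1.04, 1.02 and 0.56 in time order, with 8, 8 and 3 past the fold upwards and 0, 0 and 1 downwards. The 36 interferon-stimulated genes had medians of 0.46, 1.80 and 0.31, with 7, 29 and 8 past the fold upwards and 4, 0 and 1 downwards. Over all 10778 genes of this kind the median was 0 at each time. Of them 666, 818 and 800 were past the fold upwards and 933, 1278 and 756 downwards. With at least 100 UMIs in the 2 libraries compared, the interferon list held 2, 6 and 1 genes, with medians of 1.93, 2.07 and 0.76, and the NF-kB list 5, 5 and 4 genes, with medians of 1.16, 1.02 and 0.56. Genes can pass that minimum through the library in which they are high, as MX1 did at 4 h, so these medians are over different genes and carry no order in time.

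**Figure D5:**
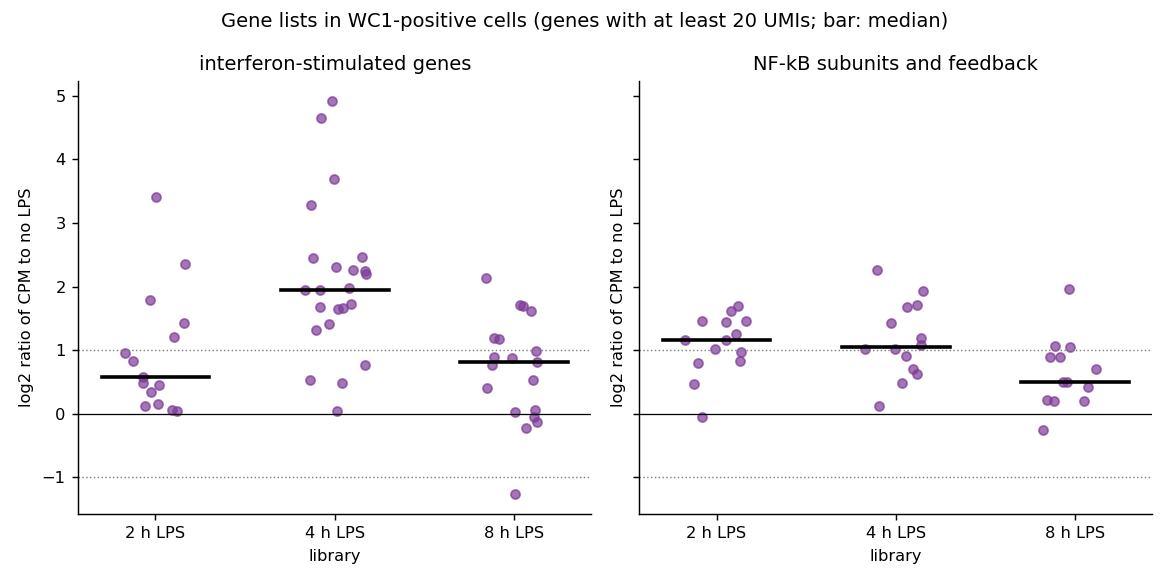
Log2 ratios of CPM to no LPS in WC1-positive cells, with 1 point per gene of the interferon-stimulated list (left) and the NF-kB list (right) that had at least 20 UMIs, bars at the medians and dotted lines at 2-fold. The genes that reach this minimum differ between times. The interferon medians are 0.58, 1.95 and 0.82 in time order and the NF-kB medians 1.16, 1.05 and 0.50.

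The same lists were set beside αβ T cells of the same libraries, with no test of the difference. Over the same 16 genes the NF-kB median after 2 h was 1.04 in members, 0.76 in CD4 T cells and 0.64 in CD8B T cells. In the same order it was 1.02, 0.64 and 0.31 after 4 h, and 0.56, 0.39 and 0.04 after 8 h. The interferon medians were 0.46, 0.32 and 0.21 after 2 h, then 1.80, 1.64 and 1.02, and 0.31, 0.41 and 0.32 in the last library. The genes were taken for their UMIs in the members. With at least 100 UMIs in each class, the NF-kB medians were 1.16, 1.11 and 0.97 after 2 h and 1.02, 1.10 and 0.53 after 4 h, so the order of members and CD4 T cells at 4 h depended on the genes taken. ISG15 stood at 118, 490, 1979 and 239 CPM in CD4 T cells and at 18.3, 151, 438 and 57.9 CPM in CD8B T cells, highest at 4 h in all 3 classes. TNFRSF18 was higher in members by 3.03 at 2 h, in CD4 T cells by 1.92 and in CD8B T cells by 1.64.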

How the data were processed

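PBMC of pooled blood were profiled by scRNA-seq in 4 libraries, 1 per treatment. The deposited tables hold the authors' UMI counts of 21861 genes in each barcode, made with Cell Ranger on ARS-UCD1.2 per the labels, and not normalized. The scATAC-seq files were not used here. Rows of equal gene name were summed. Doublets were not called, and mitochondrial share was not a filter. The members, gene lists and tests were chosen with earlier results of these data known.

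UMI counts were summed per library and class. Classes were compared with edgeR 4.0.16 (TMM factors, filterByExpr, glmQLFit and glmQLFTest, library block, Benjamini-Hochberg, 0.05) in R 4.3.3. The SE was the absolute log2 fold change divided by the square root of the quasi-likelihood F statistic. DESeq2 1.42.0, other scalings, filters, cell limits and left-out libraries were tried as alternatives. CD4 T cells had CD3 and at least 1 CD4 UMI, and CD8B T cells CD3 and at least 1 CD8B UMI. Both lacked UMIs of the other's gene, WC1, WC1.3, MS4A1 and CD14. B cells had at least 2 MS4A1 and monocytes at least 2 CD14 UMIs, both without CD3, WC1 and WC1.3 UMIs. Neither was gated on the other's gene, and B cells held 2575 CD14 UMIs over all libraries. Treatments were compared as ratios of CPM with exact Poisson or conditional binomial 95% intervals, in Python 3.11.15 and scipy 1.17.1, without a test. Intervals cover counting error only. A count of 0 was set to a floor of 3.

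Genes were named by rule. In each class comparison these were the 12 largest rises and falls past 0.05 with the same sign in 4 libraries and at least 200 UMIs. At each time they were the 10 largest rises and falls past 2-fold with at least 100 UMIs. Members of the lists and the genes of the rule were added. The values of IL17A, IL17F and IL22 in cells with 1 WC1 UMI were chosen after they were seen. The scripts were tested on simulated data. Some genes that the rule names are not reported here.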

Additional observations from a re-analysis of the deposited data

Results flagged for a closer look

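At 2 h, 4 h and 8 h the log2 ratios to no LPS of several genes differed in direction between WC1-positive cells and CD4 or CD8B T cells. These were cells of the same libraries, and the counting intervals left out 0 in both classes. With 1 library per treatment the difference between classes was not tested. At 2 h SOX4 was at −1.21 in WC1-positive cells and at 0.93 in CD8B T cells, where it stood at 8.92 CPM without LPS and 17.0 CPM at 2 h. In CD4 T cells SOX4 was lower at 2 h, as in WC1-positive cells, at 7.35 CPM without LPS and 4.56 CPM at 2 h. CXCL2 was at −1.16 in WC1-positive cells, 1.05 in CD4 T cells and 0.89 in CD8B T cells. At 4 h CXCL2 was at −1.32 in WC1-positive cells and 0.37 in CD8B T cells, and ID3 at −1.84 and 1.09. In CD4 T cells ID3 was lower at 4 h, as in WC1-positive cells, at 15.9 CPM without LPS and 5.74 CPM at 4 h.

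The rest were genes whose UMIs lay mostly in 1 WC1-positive cell. At 4 h BOLA-DRA was at 4.53 in WC1-positive cells, −1.02 in CD4 T cells and −1.01 in CD8B T cells. BLA-DQB was at 3.38, −0.44 and −0.69 in the same order, and CD74 was at 3.02 in WC1-positive cells and −0.43 in CD4 T cells. At 8 h CCL5 was at 1.38 in WC1-positive cells, −1.56 in CD4 T cells and −1.69 in CD8B T cells.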

How the results depend on the processing

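No paired analysis of treatments was possible because each treatment had 1 library and the labels carry no replicate numbers. The class comparisons were paired by library. The limits lie in depth: 43 to 93 cells a library, sums of 229707 to 394689 UMIs, and ratios that rest on few cells. The count of genes past 2-fold depended on the minimum count. With at least 20 UMIs 166, 235 and 162 genes were higher (2 h, 4 h, 8 h) and 145, 213 and 118 lower. With at least 500 UMIs 2, 4 and 0 were higher and 0, 0 and 0 lower. With no minimum and a pseudocount of 5 CPM 666, 818 and 800 were higher and 933, 1278 and 756 lower. With at least 3 WC1 UMIs 6, 2 and 2 were higher and 2, 1 and 3 lower. Without cells that had CD79A, CD79B, LYZ or CSF1R UMIs 12 and 2 were higher at 4 h and 8 h, and 5, 6 and 3 lower at 2 h, 4 h and 8 h. Without the 10% of cells with the most UMIs 11 and 2 were higher at 4 h and 8 h, and 4, 6 and 3 lower. At 8 h TMM factors gave 4 higher and 2 lower and moved the median of all genes to −0.11, DESeq2 size factors gave 2 lower, and no upper limit on genes gave 3 lower. Without each gene's highest cell, a check chosen after seeing the data, 19 were higher at 4 h and 3 lower at 8 h, and 55.9% of the calls at 4 h were rises, against 74.4% with all cells. At 8 h 70.0% were rises, against 87.5%, and 40.0% without the cells with the most UMIs.

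The median of the interferon-stimulated genes at 2 h was 0.58 with at least 20 UMIs, 0.46 with no minimum or with the same genes at each time (chosen after seeing the data), 4.81 with at least 3 WC1 UMIs and 0.18 with no upper limit on genes. At 4 h it was 4.92 with at least 500 UMIs and 5.64 with at least 3 WC1 UMIs, and that of the NF-kB genes was 1.68 and 0.53. The values at 500 UMIs are the ratios of ISG15 and of NFKBIA themselves. With all members and at least 100 UMIs the interferon list held 2 genes at 2 h and 6 at 4 h. With at least 3 WC1 UMIs it could hold no more, so these values do not describe whole lists. BOLA-DRA at 4 h turned to −1.68 without cells that had other markers, −1.71 without the cells with the most UMIs and −1.70 without its highest cell. FABP5 turned to −2.03, −2.30 and −2.12, BLA-DQB to −0.59 without cells that had other markers, and METRNL at 8 h to −0.31 with at least 3 WC1 UMIs. Beyond these reversals, 314 values of named genes by time and setting stayed within their interval and 45 moved beyond it without turning.

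The share of members at 3 WC1 UMIs was 0.534%, 0.182%, 0.175% and 0.407% (no LPS, 2 h, 4 h, 8 h), at 1 UMI 2.77%, 2.33%, 2.13% and 2.88%, thinned 0.205%, 0.0847%, 0.0421% and 0.165%, and of cells with CD3 2.23%, 0.967%, 0.986% and 2.17%.

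Against CD4 T cells DESeq2 called 302 genes lower and no filter on low counts gave 745, and 263 were higher at 3 WC1 UMIs. With 1 library left out 437 to 586 were higher and 317 to 459 lower. Against CD8B T cells DESeq2 called 249 lower, no filter gave 821 and 3 WC1 UMIs 332, with 329 higher at 3 WC1 UMIs. With 1 library left out 455 to 583 were higher and 370 to 480 lower. CCL5, FCER1G and CXCR4 against CD4 T cells turned to −4.20, −0.58 and −0.036 with at least 3 WC1 UMIs. Of the named genes' values under the alternatives, 2218 kept direction and call, 332 lost the call and 3 turned. For WC1.3 against WC1 cells 0 genes were higher by DESeq2, without the library block or without cells that had other markers, 31 were higher and 1 lower with no filter, and 0 to 2 were higher with 1 library left out. The cause of these changes was not tested.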
